A study of Arabidopsis thaliana with 8 samples.

Results

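The genes followed here are the 47 nuclear genes for the photosystems, their light-harvesting antennae, the electron carriers and ATP synthase that connect them, and RuBisCO with its activase. They were taken by locus code from a list by protein function. No measured value entered its rule, but the list was chosen with earlier results of these data known. All 47 were found among the 38209 genes of the deposited tables. They comprise 4 *LHCA* genes, 14 *LHCB* genes, 10 genes for photosystem I subunits (*PSA*), 7 for photosystem II subunits (*PSB*), 5 for electron carriers, 2 for ATP synthase and 5 for RuBisCO. mRNA was sequenced from seeds of *pkr2-2*, *pkl-1*, the *pkr2-2;pkl-10* double mutant and Col-0, as 8 samples, 2 biological replicates for every 1 of the 4 genotypes. All mutants are in the Col-0 background and came from selfed plants without further treatment. The *pkr2-2* and *pkl-10* alleles are T-DNA insertions, and the double mutant carries *pkl-10* in place of *pkl-1*, so it differs from *pkl-1* in the *PKL* allele as well as at *PKR2*. Each replicate pooled the seeds of at least 30 siliques, harvested at 4 days after pollination by the sample labels and at 3 days by the extraction text.

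In the thylakoid membrane, antenna proteins bind chlorophyll and pass the energy of absorbed light to the reaction centers, LHCA proteins to photosystem I and LHCB proteins to photosystem II. Photosystem II splits water, the cytochrome b6f complex and plastocyanin carry electrons to photosystem I, and ferredoxin-NADP reductase and ATP synthase supply the NADPH and ATP with which RuBisCO fixes carbon. The antenna proteins and many peripheral subunits are encoded in the nucleus, and transcripts of several of these families are among the most abundant of green tissue. Arabidopsis seeds are green during part of their development, with chloroplasts in the embryo and in maternal tissue. *PKL* encodes a CHD3 chromatin remodeler and *PKR2* its Brassicaceae paralog, whose transcripts are best known from the endosperm.

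Expression was deposited as FPKM (fragments per kilobase of transcript, normalized between libraries by the geometric method), so summed FPKM can differ between genotypes. Each genotype has a single value per table, pooled by the authors over both replicates. No value therefore carries an error between replicates, no test could be run, and all differences below are descriptions of pooled libraries given as log2 ratios of FPKM + 1. Against Col-0, *PKR2* (AT4G31900, TAIR10.1 chromosome 4, 15431350 to 15438678) was at 0.168 FPKM in *pkr2-2* and 3.06 in Col-0, and at 0.120 in double mutant seeds and 3.57 in Col-0. *PKL* (AT2G25170, chromosome 2, 10713807 to 10724106) was at 2.44 FPKM in double mutant seeds against 13.6 in Col-0, whereas in *pkl-1* it was at 15.2 against 12.8, so that the transcript level does not check the *pkl-1* label. For the 47 genes, a genotype's values in different tables differed by a near-constant factor, so the comparisons of the double mutant with the single mutants are not independent of those with Col-0. Fragments were estimated from the smallest FPKM steps at 53 to 180306 per photosynthesis gene and genotype (median 12714). The 95% interval of a log2 ratio from counting error alone had a median width of 0.07, and this interval does not cover differences between replicates.

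Most photosynthesis genes were somewhat lower in every mutant than in Col-0, and few differed by more than 2-fold. All 47 reached at least 1 FPKM in a genotype of every comparison. In *pkr2-2*, 42 of 47 were below Col-0, against 47.7% of the 18124 genes that reached 1 FPKM. In *pkl-1* 42 of 47 were lower (51.1% of 18645 genes), and in double mutant seeds 40 of 47 (47.9% of 19141). The 3 comparisons share the same Col-0 libraries, so a high or low Col-0 value of a gene would move all 3 ratios the same way. A direction common to the 3 mutants is therefore not an independent repeat. In total 39 of the genes were lower in all 3 mutants, and 4 (*LHCB4.3*, *PSAH2*, *RBCS2B* and *RBCS3B*) were higher in all 3. The share of all genes with either pattern was not computed, so these joint counts have no background. Some ratios near 0 enter them, such as *PSAH2* in *pkl-1* (0.02) and *PSAL* in *pkr2-2* (-0.02), whose counting intervals included 0. The remaining 4 were mixed: *PSAK* was higher in *pkr2-2* alone, *LHCB1.2* was lower in *pkr2-2* alone, and *LHCA1* and *PSAD2* were higher in double mutant seeds alone, all by small ratios. The 47 genes had a median log2 ratio of -0.24 for *pkr2-2*, -0.53 for *pkl-1* and -0.58 for the double mutant, against medians of 0.02, -0.01 and 0.03 over all genes.

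**Figure D1:**
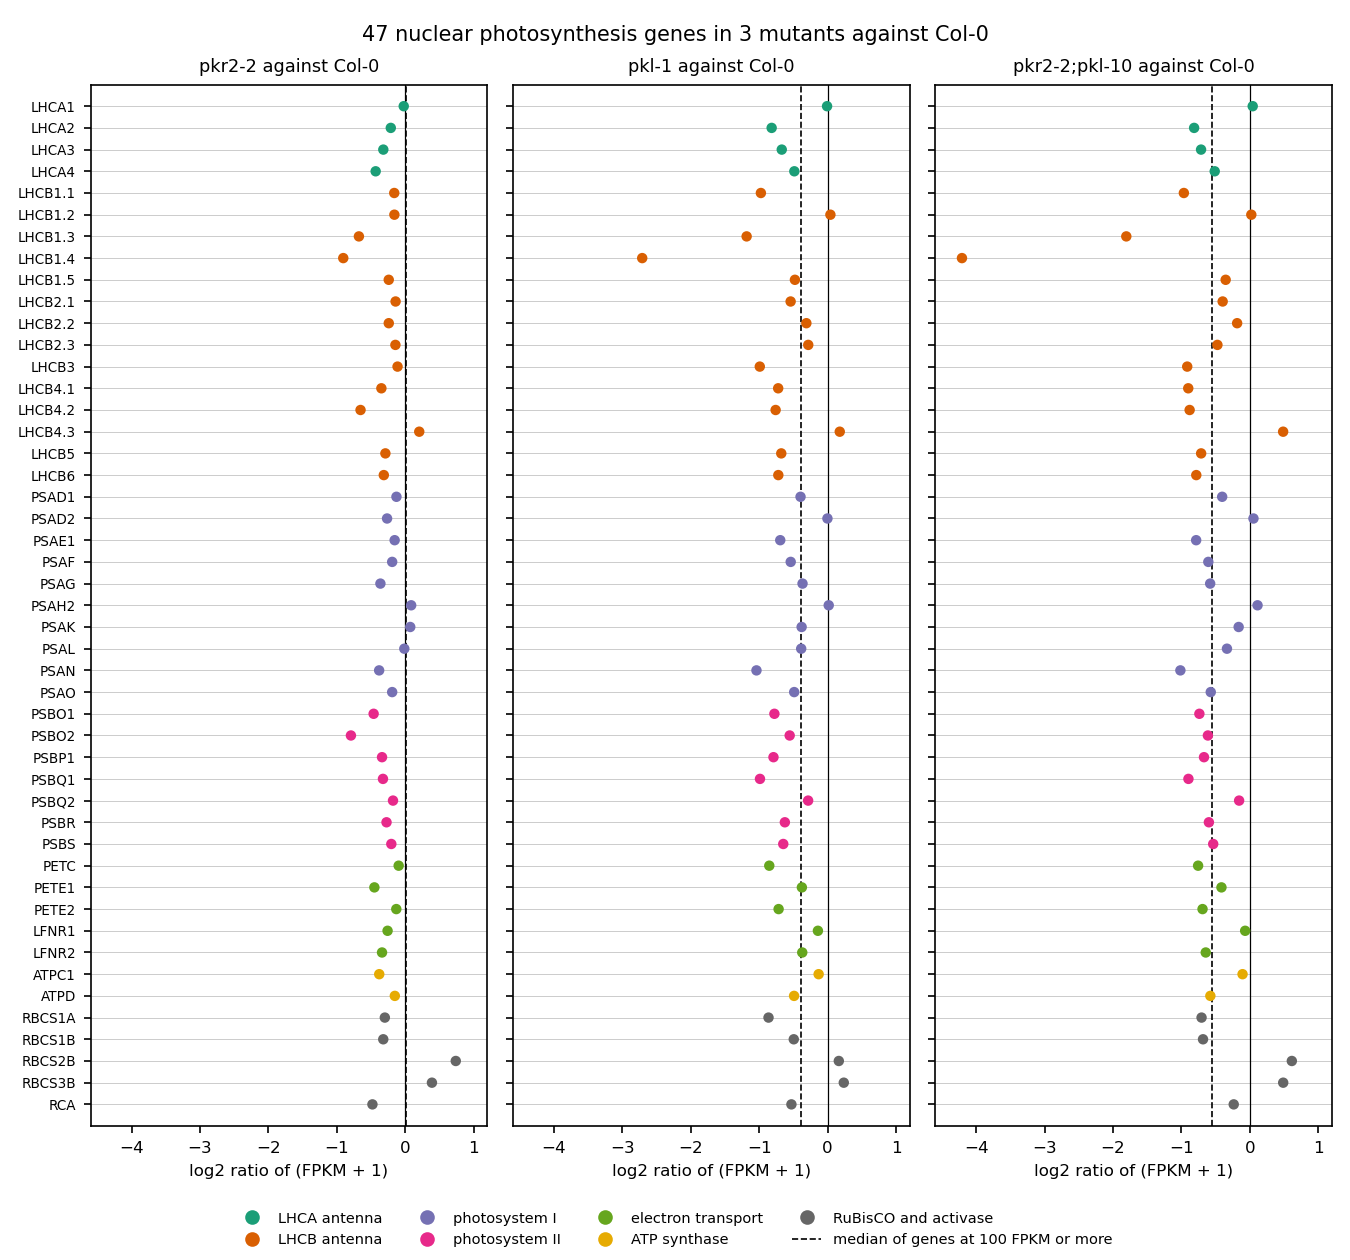
Log2 ratio of FPKM + 1 against Col-0 (horizontal axis) for each of the 47 genes (rows, colored by class) in *pkr2-2*, *pkl-1* and the double mutant, with 1 pooled value per genotype and no error bars. The solid line marks a ratio of 0 and the dashed line the median of genes of at least 100 FPKM, which was 0.01, -0.39 and -0.55; *LHCB1.4* stood apart at -0.91, -2.71 and -4.21.

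Abundance bears on these medians, since 42 or 43 of the 47 genes reached 100 FPKM and abundant genes as a whole did not center on 0 in 2 of the mutants. The 1533 genes of at least 100 FPKM had a median log2 ratio of 0.01 in *pkr2-2*, while the corresponding 1636 genes in *pkl-1* had -0.39 and the 1775 in double mutant seeds -0.55. Set beside these genes, which were not matched further in level, the photosynthesis genes were shifted downward in *pkr2-2*. There 38 of 42 were lower, against 49.0% of abundant genes. In *pkl-1* the shift was smaller, with 38 of 43 lower against 78.7%. In the double mutant 36 of 43 were lower against 80.2%, and the median of the photosynthesis genes lay close to that of abundant genes. When both genotypes were instead scaled to the same summed FPKM of nuclear genes, all ratios moved by -0.02 in *pkr2-2*, 0.33 in *pkl-1* and 0.45 in double mutant seeds, and the median of all genes moved to -0.00, 0.28 and 0.44. On that scale the median of the photosynthesis genes was -0.27, -0.20 and -0.13. That of genes of at least 100 FPKM was -0.02, -0.06 and -0.10. Of the photosynthesis genes, 42, 35 and 29 were then lower than in Col-0, and 28 were lower in all 3 mutants. Shares of all genes were not computed for these scaled counts. With that scaling 7 genes turned to higher in *pkl-1* (*ATPC1*, *LFNR1*, *LHCA1*, *LHCB2.2*, *LHCB2.3*, *PSAD2* and *PSBQ2*). In double mutant seeds 11 did (*ATPC1*, *LFNR1*, *LHCB1.5*, *LHCB2.1*, *LHCB2.2*, *PETE1*, *PSAD1*, *PSAK*, *PSAL*, *PSBQ2* and *RCA*).

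**Figure D2:**
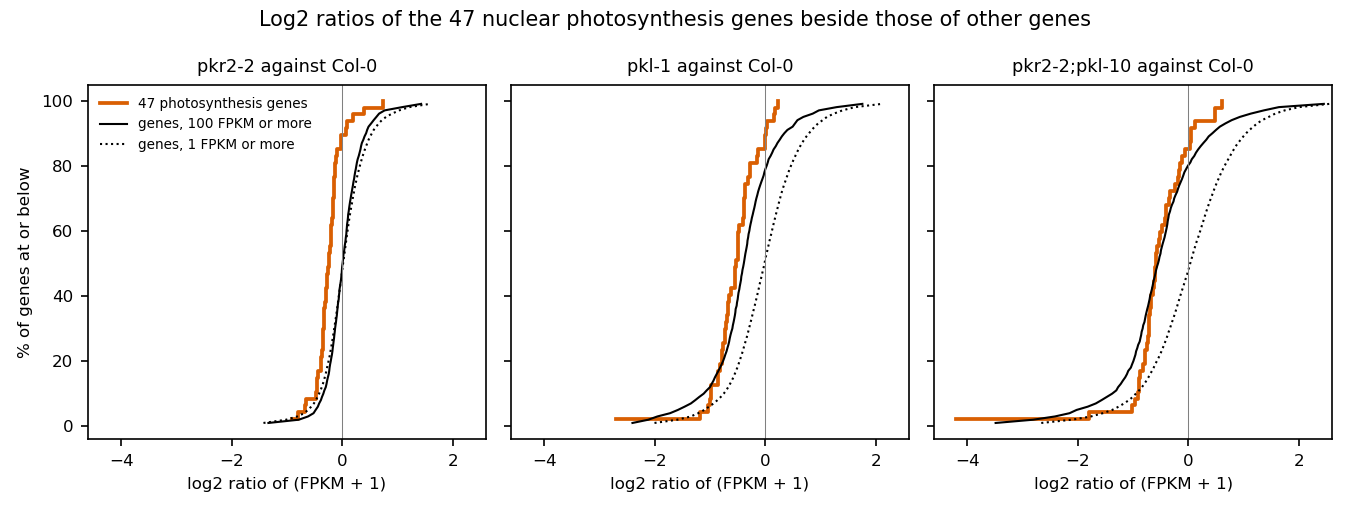
Cumulative share of genes (vertical axis, percent) at or below a given log2 ratio of FPKM + 1 (horizontal axis) for the 47 photosynthesis genes, genes of at least 100 FPKM and genes of at least 1 FPKM. In *pkr2-2* the orange steps lie left of both other curves over most of their length, with medians of -0.24, 0.01 and 0.02; in double mutant seeds they cross the curve of the abundant genes near the middle, with medians of -0.58 and -0.55.

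The summed FPKM of the 47 genes made up 2.40% of all FPKM in *pkr2-2*, 2.38% in *pkl-1* and 2.58% in double mutant seeds, against 3.00% in Col-0. This share does not depend on the scaling between genotypes, but the most abundant genes weigh most in it. In double mutant seeds the *LHCB* genes held 1.01% against 1.37% in Col-0, and the *PSB* genes 0.363% against 0.412%. Electron carriers held 0.102% against 0.113%, *LHCA* genes 0.207% against 0.214% and *PSA* genes 0.387% against 0.396%. The RuBisCO class (0.473% against 0.463%) and ATP synthase (0.0363% against 0.0339%) were slightly above Col-0, so the lower share was not common to all classes. By size of difference, 4 genes were lower by more than 0.5 on the log2 scale in *pkr2-2* (7.28% of all genes), 24 in *pkl-1* (18.3%) and 28 in double mutant seeds (22.5%). After scaling to the summed FPKM these counts were 5, 8 and 4. On that scale 1, 2 and 5 genes were higher by more than 0.5. In double mutant seeds the counts in both directions were thus close. Shares of all genes were not computed for the scaled counts, so the percentages above are not their background. Without that scaling, 3 of 42 genes of at least 100 FPKM were lower by more than 0.5 in *pkr2-2*, against 4.44% of all such genes. In *pkl-1* it was 23 of 43 against 38.8%, and in double mutant seeds 25 of 43 against 53.5%. Differences of more than 2-fold were about as frequent as among all genes or less so. None of the 47 was lower by more than 2-fold in *pkr2-2* (2.07% of all genes), and 3 were in *pkl-1* (6.11%) and in double mutant seeds (9.08%), which in both cases were *LHCB1.3*, *LHCB1.4* and *PSAN*. None was higher by more than 2-fold in any of these mutants (3.22%, 6.51% and 10.9% of all genes). After scaling to the summed FPKM only *LHCB1.4* remained lower by more than 2-fold in *pkl-1*, and in double mutant seeds *LHCB1.3* and *LHCB1.4* were lower and *RBCS2B* was higher by more than 2-fold.

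*LHCB1* encodes the main protein of the trimeric light-harvesting complex II, and its 5 genes differed widely from one another in level and in ratio. *LHCB1.4* (AT2G34430, chromosome 2, 14524607 to 14525918, plus strand) was the least abundant of the 47 genes in every genotype. It was at 14.7 FPKM in *pkr2-2* against 28.5 in Col-0, at 3.93 in *pkl-1* against 31.3, and at 0.854 in double mutant seeds against 33.2. Its level was thus below Col-0 in each mutant and lowest in double mutant seeds, with log2 ratios of -0.91, -2.71 and -4.21. In the double mutant this was 38.9-fold lower without a pseudocount, from about 53 fragments against 1332, with a counting interval of -5.68 to -4.89 around a log2 ratio of -5.28. Scaling to the summed FPKM left its ratios at -0.93, -2.44 and -3.98. The double mutant was also below each single mutant, at 0.868 FPKM against 17.4 in *pkr2-2*, and at 0.971 FPKM with 4.71 in *pkl-1* (log2 ratios of -3.30 and -1.53).

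The gene on the other side of the same intergenic stretch, *LHCB1.5* (AT2G34420, chromosome 2, 14522524 to 14523568, minus strand), is transcribed in the opposite direction and was among the 3 most abundant of the 47 in every genotype. It was at 2091 FPKM in *pkr2-2* against 2475 in Col-0 (log2 ratio -0.24), at 1948 in *pkl-1* against 2713 (-0.48) and at 2256 in double mutant seeds against 2883 (-0.35, but 0.10 after scaling to the summed FPKM). The low level of *LHCB1.4* in the mutants was thus not shared by its neighbor. *LHCB1.5* lies wholly within an annotated antisense gene, AT2G08665, and whether the counting used strand is not given in the sources used here, so the levels of the pair cannot be told apart. AT2G08665 was listed at 0.0925 FPKM in *pkr2-2* against 0.0948 in Col-0, at 0.0958 in *pkl-1* against 0.0933, and at 27.9 in double mutant seeds against 0.0846.

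The bases upstream of the annotated starts of both genes, and of *LHCB1.3*, are shown because these 3 genes span the range of ratios and of abundance in the family. Each is 250 bases of TAIR10.1 read 5′ to 3′ on the strand of the gene, and capitals mark the CCAAT box and, in *LHCB1.4*, the letters AAAAATCT known as a binding site of the clock factor CCA1. The regions are chr2:14524357-14524606 (plus strand) for *LHCB1.4*, chr2:14523569-14523818 (minus strand) for *LHCB1.5* and chr1:10477635-10477884 (plus strand) for *LHCB1.3*.
LHCB1.4: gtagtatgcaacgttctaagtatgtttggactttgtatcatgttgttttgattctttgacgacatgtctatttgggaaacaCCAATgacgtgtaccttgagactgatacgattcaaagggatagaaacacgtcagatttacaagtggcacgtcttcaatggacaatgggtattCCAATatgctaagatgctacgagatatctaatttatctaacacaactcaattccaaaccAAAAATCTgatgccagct
LHCB1.5: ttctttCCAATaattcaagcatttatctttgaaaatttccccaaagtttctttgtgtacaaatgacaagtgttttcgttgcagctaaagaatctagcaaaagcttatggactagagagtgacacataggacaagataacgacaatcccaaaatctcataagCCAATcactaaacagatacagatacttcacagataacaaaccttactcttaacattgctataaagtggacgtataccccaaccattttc
LHCB1.3: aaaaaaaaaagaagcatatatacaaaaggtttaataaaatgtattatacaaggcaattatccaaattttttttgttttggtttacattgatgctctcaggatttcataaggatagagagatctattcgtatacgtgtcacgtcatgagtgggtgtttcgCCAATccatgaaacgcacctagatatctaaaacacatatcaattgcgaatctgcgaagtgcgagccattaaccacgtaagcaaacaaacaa

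*LHCB1.3* (AT1G29930, chromosome 1, 10477885 to 10479114, plus strand) was the most abundant of the 47 genes in Col-0 and ranked 9 among all genes there. It was at 2596 FPKM in *pkr2-2* against 4156 in Col-0, at 2006 in *pkl-1* against 4556 and at 1385 in double mutant seeds against 4843. Its log2 ratios of -0.68, -1.18 and -1.81 kept their direction after scaling to the summed FPKM (-0.70, -0.86 and -1.35). In the double mutant *LHCB1.3* ranked 3 among the 47 genes, behind *LHCB1.5* and *RBCS1A*, and 29 among all genes. Of the FPKM summed over the *LHCB1* genes, *LHCB1.3* held 46.8% in *pkr2-2*, 43.4% in *pkl-1* and 31.8% in double mutant seeds, against 54.7% in Col-0. The share of *LHCB1.5* was 37.7%, 42.1% and 51.9%, against 32.6% in Col-0, so that *LHCB1.5* was the leading transcript of the family in double mutant seeds and *LHCB1.3* in Col-0.

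*LHCB1.1* (AT1G29920) and *LHCB1.2* (AT1G29910) stand next to each other on chromosome 1 (10474656 to 10475969 and 10472280 to 10473502, both on the minus strand) and share 94.5% of aligned transcript bases, yet their values diverged in the *pkl* mutants. *LHCB1.1* was at 616 FPKM in *pkr2-2* against 690 in Col-0 (-0.16), at 384 in *pkl-1* against 756 (-0.98) and at 411 in double mutant seeds against 804 (-0.96). *LHCB1.2* was at 223 FPKM in *pkr2-2* against 250 in Col-0 (-0.16), at 282 in *pkl-1* against 274 (0.04) and at 295 in double mutant seeds against 291 (0.02). The pair was therefore equally little reduced in *pkr2-2*, and of the pair only *LHCB1.1* was near 2-fold lower in the *pkl* mutants. After scaling to the summed FPKM, *LHCB1.1* had -0.65 in *pkl-1* and -0.51 in double mutant seeds, and *LHCB1.2* had 0.37 and 0.47. Reads of such near-identical copies can be misassigned, although only 4.44% of the 100-base windows of *LHCB1.1* and 1.51% of those of *LHCB1.2* occurred in another gene's transcripts. Summed over the 5 genes, *LHCB1* FPKM was 72.9% of Col-0 in *pkr2-2*, 55.5% in *pkl-1* and 49.1% in double mutant seeds. These percentages depend on the scaling between genotypes. The family's share of all FPKM does not: Col-0 had 0.888%, *pkr2-2* 0.637%, *pkl-1* 0.618% and the double mutant 0.593%. By that share every mutant was still below Col-0, but the mutants lay close to one another.

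**Figure D3:**
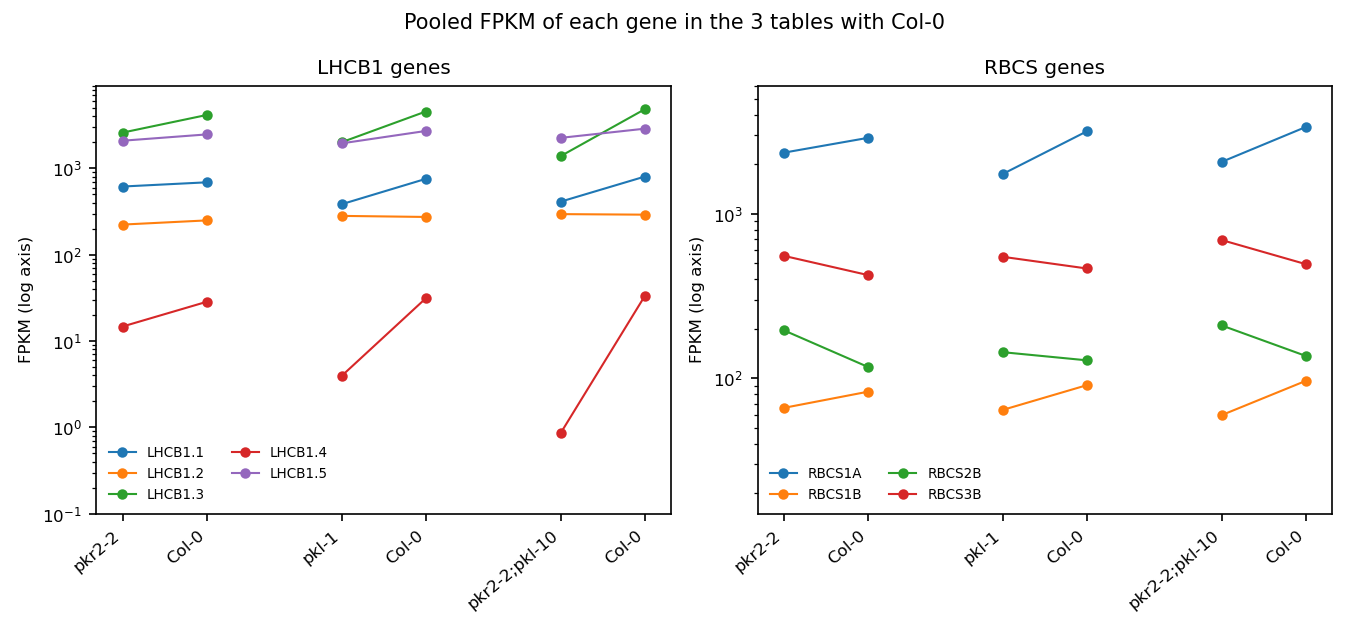
FPKM (vertical log axis) of the 5 *LHCB1* genes (left) and the 4 *RBCS* genes (right) in each mutant and in Col-0 of the same table, with 1 pooled value per point and lines joining the values of a gene. *LHCB1.3* and *LHCB1.5* have the opposite order in double mutant seeds and in Col-0 (1385 and 2256 FPKM in double mutant seeds), *LHCB1.4* lies at 0.854 there, and *RBCS2B* and *RBCS3B* lie above Col-0 in all 3 mutants while *RBCS1A* lies below.

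Most other *LHCB* genes were lower in every mutant. *LHCB3*, a further component of light-harvesting complex II trimers, was at 753 FPKM in *pkr2-2* against 815 in Col-0 (-0.11), at 449 in *pkl-1* against 894 (-0.99) and at 503 in double mutant seeds against 950 (-0.92). Like *LHCB1.1*, it was little different in *pkr2-2* and, without scaling to the summed FPKM, near 2-fold lower in both *pkl* mutants. After that scaling *LHCB3* had -0.67 in *pkl-1* and -0.46 in double mutant seeds. The 3 *LHCB2* genes had small ratios in all mutants, from -0.24 to -0.14 in *pkr2-2*, -0.54 to -0.28 in *pkl-1* and -0.47 to -0.19 in double mutant seeds, of which those of *LHCB2.2* in both *pkl* mutants, *LHCB2.3* in *pkl-1* and *LHCB2.1* in double mutant seeds turned positive after scaling to the summed FPKM. The minor antenna proteins CP29, CP26 and CP24 link these trimers to the photosystem II core. *LHCB4.1* and *LHCB4.2*, for CP29, had log2 ratios of -0.35 and -0.65 in *pkr2-2*, -0.72 and -0.76 in *pkl-1*, and -0.90 and -0.88 in double mutant seeds. *LHCB5* (CP26) and *LHCB6* (CP24) had -0.29 and -0.31, -0.68 and -0.72, and -0.71 and -0.78 in the same order of mutants.

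*LHCB4.3* (AT2G40100, chromosome 2, 16745628 to 16747424, plus strand), a CP29 isoform, was the only *LHCB* gene higher than Col-0 in all 3 mutants, also after scaling to the summed FPKM. It was at 98.3 FPKM in *pkr2-2* against 85.3 in Col-0 (0.20), at 105.9 in *pkl-1* against 93.5 (0.18) and at 139.6 in double mutant seeds against 99.4 (0.49). Its 2 sister genes were lower in the same libraries. Over the class, 13 of 14 *LHCB* genes were lower in *pkr2-2* and 12 of 14 in both *pkl-1* and the double mutant, with median log2 ratios of -0.24, -0.70 and -0.75 (-0.27, -0.37 and -0.30 after scaling to the summed FPKM).

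The *LHCA* genes encode the antenna of photosystem I, and 3 of the 4 were lower in all mutants. *LHCA2* (AT3G61470, chromosome 3, 22745514 to 22747444) was at 336 FPKM in *pkr2-2* against 390 in Col-0 (-0.21), at 242 in *pkl-1* against 428 (-0.82) and at 258 in double mutant seeds against 454 (-0.81). *LHCA4* (AT3G47470, chromosome 3, 17493343 to 17495033), the most abundant of the class in Col-0, was at 405 FPKM in *pkr2-2* against 548 (-0.43), at 428 in *pkl-1* against 600 (-0.49) and at 447 in double mutant seeds against 638 (-0.51). *LHCA3* had -0.32, -0.67 and -0.71. After scaling to the summed FPKM, the ratios in double mutant seeds were -0.36 for *LHCA2*, -0.26 for *LHCA3* and -0.06 for *LHCA4*. *LHCA1* stood apart from the other 3, with 365 FPKM in *pkr2-2* against 371 in Col-0 (-0.02), 405 in *pkl-1* against 407 (-0.01) and 445 in double mutant seeds against 433 (0.04).

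Photosystem I subunits were the least reduced of the photosystem classes, with medians of -0.17 in *pkr2-2*, -0.39 in *pkl-1* and -0.49 in double mutant seeds (-0.20, -0.07 and -0.04 after scaling to the summed FPKM). *PSAN* (AT5G64040, chromosome 5, 25628521 to 25629708), for a lumenal subunit on the plastocyanin side, had the lowest ratio of the class in every mutant. It was at 279 FPKM in *pkr2-2* against 365 in Col-0 (-0.38), at 194 in *pkl-1* against 400 (-1.04) and at 209.8 in double mutant seeds against 425 (-1.02). Of the 10 genes, 3 in *pkl-1* (*PSAE1*, *PSAF* and *PSAN*) and 5 in double mutant seeds were lower by more than 0.5. After scaling to the summed FPKM, *PSAN* had -0.71 in *pkl-1* and -0.56 in double mutant seeds, and *PSAE1* had -0.37 and -0.33. *PSAL* was the most abundant of the class in *pkr2-2* at 444 FPKM against 449 in Col-0 (-0.02), with 376 against 492 in *pkl-1* (-0.39) and 414 against 523 in double mutant seeds (-0.33, but 0.12 after scaling to the summed FPKM). *PSAH2* was near Col-0 throughout, with 243 FPKM against 229 in *pkr2-2* (0.08), 254 against 251 in *pkl-1* (0.02) and 288 against 267 in double mutant seeds (0.11).

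The subunits D, which dock ferredoxin, come from a pair of genes that differed. *PSAD1* was at 299 FPKM in *pkr2-2* against 328 in Col-0 (-0.13), at 273 in *pkl-1* against 359 (-0.40) and at 288 in double mutant seeds against 382 (-0.40, but 0.05 after scaling to the summed FPKM). *PSAD2* was at 102 FPKM in *pkr2-2* against 123 (-0.27), at 135 in *pkl-1* against 135 (-0.00) and at 149 in double mutant seeds against 143 (0.05). The less abundant copy thus had the higher ratio of the pair in the *pkl* mutants and the lower one in *pkr2-2*. *PSAG*, *PSAE1* and *PSAH2* overlap genes on the other strand and shared 55.8%, 24.0% and 12.4% of their 100-base windows with them, so their values are uncertain. AT1G55673, the partner of *PSAG*, was itself at 335 FPKM in *pkr2-2* against 421 in Col-0, at 314 in *pkl-1* against 462 and at 367 in double mutant seeds against 491.

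All 7 *PSB* genes were lower in all 3 mutants, with medians of -0.33 in *pkr2-2*, -0.65 in *pkl-1* and -0.61 in double mutant seeds (-0.35, -0.32 and -0.16 after scaling to the summed FPKM). *PSBR* (AT1G79040, chromosome 1, 29735952 to 29737009), a small subunit of the water-splitting side, was the most abundant, at 1024 FPKM in *pkr2-2* against 1239 in Col-0 (-0.28), 881 in *pkl-1* against 1359 (-0.62) and 953 in double mutant seeds against 1444 (-0.60). *PSBO*, *PSBP* and *PSBQ* encode the proteins that shield the manganese cluster where water is oxidized. *PSBO2* (AT3G50820, chromosome 3, 18890874 to 18892508) was the lowest of the class in *pkr2-2*, at 74.5 FPKM against 130 in Col-0 (-0.80), with 96.7 against 143 in *pkl-1* (-0.55) and 98.7 against 151 in double mutant seeds (-0.61). Its more abundant copy *PSBO1* (AT5G66570) was at 519 FPKM in *pkr2-2* against 716 (-0.46), at 457 in *pkl-1* against 785 (-0.78) and at 500 in double mutant seeds against 834 (-0.74).

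Within *pkr2-2*, *PSBO2* thus had the lower ratio of the pair, and within both *pkl* mutants *PSBO1* did. *PSBQ1* (AT4G21280) and *PSBQ2* (AT4G05180) also diverged. *PSBQ1* was at 259 FPKM in *pkr2-2* against 326 in Col-0 (-0.33), at 179 in *pkl-1* against 357 (-0.99) and at 203 in double mutant seeds against 379 (-0.90). *PSBQ2* was at 164 FPKM in *pkr2-2* against 186 (-0.18), at 167 in *pkl-1* against 204 (-0.28, but 0.04 after scaling to the summed FPKM) and at 194 in double mutant seeds against 216 (-0.16, but 0.29). *PSBS*, the sensor of photoprotective energy dissipation, had ratios of -0.21, -0.65 and -0.54.

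Among the electron carriers, *PETC* (AT4G03280), for the Rieske protein of the cytochrome b6f complex, was at 249.6 FPKM in *pkr2-2* against 267 in Col-0 (-0.10), at 162 in *pkl-1* against 293 (-0.85) and at 184 in double mutant seeds against 311 (-0.76). *PETE1* and *PETE2* encode plastocyanin. *PETE1* was at 73.8 FPKM in *pkr2-2* against 101 in Col-0 (-0.45), at 85.4 in *pkl-1* against 111 (-0.38) and at 88.3 in double mutant seeds against 118 (-0.42, but 0.03 after scaling to the summed FPKM). *PETE2*, the more abundant of the pair, was at 388 FPKM in *pkr2-2* against 426 (-0.13), at 284 in *pkl-1* against 467 (-0.72) and at 307 in double mutant seeds against 496 (-0.69). As in the *PSBO* pair, the less abundant plastocyanin gene was the lower in *pkr2-2* and the more abundant one in the *pkl* mutants.

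*LFNR1* and *LFNR2*, for ferredoxin-NADP reductase, had log2 ratios of -0.26 and -0.34 in *pkr2-2*, -0.14 and -0.37 in *pkl-1*, and -0.07 and -0.64 in double mutant seeds, and those of *LFNR1* in the *pkl* mutants turned positive (0.18 and 0.38) after scaling to the summed FPKM. *ATPC1* and *ATPD* encode the gamma and delta subunits of the plastid ATP synthase. *ATPC1* was at 100.1 FPKM in *pkr2-2* against 131 in Col-0 (-0.38), at 131 in *pkl-1* against 143 (-0.13, but 0.19 after that scaling) and at 141 in double mutant seeds against 152 (-0.11, but 0.34). It was thus lowest relative to Col-0 in *pkr2-2*, where *ATPD* had -0.15, with -0.49 in *pkl-1* and -0.58 in double mutant seeds.

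The small subunit of RuBisCO is encoded by 4 *RBCS* genes, and these split in direction. *RBCS1A* (AT1G67090, chromosome 1, 25048158 to 25049667, minus strand), the leading gene, was at 2357 FPKM in *pkr2-2* against 2902 in Col-0 (-0.30), at 1748 in *pkl-1* against 3181 (-0.86) and at 2072 in double mutant seeds against 3381 (-0.71). The other 3 form a cluster on chromosome 5 (*RBCS3B* from 15376988, *RBCS2B* from 15380907, *RBCS1B* from 15383167, all on the minus strand). *RBCS2B* (AT5G38420) was at 196 FPKM in *pkr2-2* against 117 in Col-0 (0.74), at 144 in *pkl-1* against 129 (0.16) and at 209.7 in double mutant seeds against 137 (0.61). *RBCS3B* (AT5G38410) was at 556 FPKM in *pkr2-2* against 425 (0.39), at 549 in *pkl-1* against 466 (0.24) and at 694 in double mutant seeds against 495 (0.49).

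*RBCS1B*, in the same cluster, was lower, at 66.04 FPKM in *pkr2-2* against 82.9 in Col-0 (-0.32), 64.2 in *pkl-1* against 90.8 (-0.49) and 59.7 in double mutant seeds against 96.5 (-0.68). Neighboring position therefore did not go with a common direction. Scaling to the summed FPKM turned no *RBCS* ratio against Col-0. *RBCS2B* had the highest log2 ratio of all 47 genes in *pkr2-2* and in double mutant seeds. Of the summed *RBCS* FPKM, *RBCS1A* held 74.2% in *pkr2-2*, 69.8% in *pkl-1* and 68.3% in double mutant seeds, against 82.3% in Col-0. *RBCS3B* held 17.5%, 21.9% and 22.9%, against 12.0% in Col-0. *RBCS3B* shared 12.1% of its 100-base windows with *RBCS1B*, whereas *RBCS2B* shared none. *RCA*, for RuBisCO activase, was at 310.1 FPKM in *pkr2-2* against 433 (-0.48), at 329 in *pkl-1* against 475 (-0.53) and at 428 in double mutant seeds against 505 (-0.24, but 0.22 after scaling to the summed FPKM).

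The upstream bases of *RBCS2B* (chr5:15382072-15382321, minus strand) are shown because this gene was above Col-0 where most of the others were lower. Capitals mark the G-box CACGTG, the I-box GATAAG on either strand and the CCAAT box, motifs described in light-responsive promoters.
RBCS2B: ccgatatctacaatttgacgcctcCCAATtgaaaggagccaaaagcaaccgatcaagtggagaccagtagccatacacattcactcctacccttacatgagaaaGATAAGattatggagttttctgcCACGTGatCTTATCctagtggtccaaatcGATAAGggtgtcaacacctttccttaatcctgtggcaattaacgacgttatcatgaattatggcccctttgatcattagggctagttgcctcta

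The 250 bases upstream of the 47 genes and of 27443 genes of the annotation were searched on both strands for these letters, which were chosen after the expression values were seen. The G-box CACGTG was present in 9 of the 47 (19.1%, against 6.49% of all promoters), and the I-box GATAAG in 14 (29.8%, against 12.3%). The CCAAT box was found in 32 (68.1%, against 46%), the CCA1-binding letters AAAAATCT in 5 (10.6%, against 6.69%) and the evening element AAATATCT in 1 (2.13%, against 4.79%). *RBCS2B* held 3 I-boxes and 1 G-box, and none of the *LHCB1* genes held either motif. *LHCB1.1* and *LHCB1.4* both held AAAAATCT. A match of letters is a description of the window and not evidence of a binding site.

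Because the double mutant, *pkr2-2*, *pkl-1* and Col-0 share no libraries, the difference between *pkl* mutant and *PKL* seeds could be set side by side in the *pkr2-2* and the *PKR2* background. The double mutant against *pkr2-2* had a median log2 ratio of -0.31 over the 47 genes, with 34 lower (49.1% of all genes), and *pkl-1* against Col-0 had -0.53. Of the 47, 11 were lower by more than 0.5 against *pkr2-2* (20.8% of all genes), 2 were lower by more than 2-fold (7.51%) and none was higher by more than 2-fold (7.07%). These counts depended on the scaling. After scaling to the summed FPKM 2 genes were lower and 12 higher by more than 0.5, and only *LHCB1.4* was past 2-fold. On that scale the median of all genes was 0.43, and shares of all genes were not computed. Without that scaling, 30 of 42 genes at 100 FPKM or more were lower (83.7%) and 10 of 42 by more than 0.5 (52.7%). The ratio was less negative, or more positive, in the *pkr2-2* background for 43 of the 47 genes, with a median difference of 0.20. Among 17793 genes of at least 1 FPKM this share was 49.0%, and among 1470 genes of at least 100 FPKM it was 23.0%, with a median difference of -0.19. Photosynthesis genes and abundant genes thus lay on opposite sides. After scaling to the summed FPKM, the count was 45 of 47, against 64.0% and 41.4% of the other groups. The exceptions without that scaling were *LHCB1.4*, *LHCB2.3*, *RBCS2B* and *RBCS3B*. The same difference of differences is obtained from the *pkr2-2* allele in *pkl* mutant and *PKL* seeds, and is not a further result. The *pkl* alleles in this contrast differ, and their part in the difference cannot be told apart. Col-0 enters the difference with a plus sign, so a high Col-0 value of a gene would raise it. The same Col-0 value would lower the ratios of that gene against Col-0 in every mutant. The count of less negative ratios is therefore not independent of the lower ratios against Col-0, and the part of Col-0 was not tested.

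Across the 47 genes the ratios in the 2 backgrounds had a Pearson correlation of 0.905 (0.817 without *LHCB1.4*) and a Spearman correlation of 0.819, a description over points that share sequence families and abundance and are not independent. The Pearson correlation over all 17793 genes was 0.717 and over the 1470 genes of at least 100 FPKM 0.729, so a similar order in both backgrounds was not particular to the photosynthesis genes. *LHCB1.3* was at 1407 FPKM in double mutant seeds against 3063 in *pkr2-2* (-1.12), close to its -1.18 in *pkl-1*. *LHCB3* was at 511 FPKM in double mutant seeds against 889 in *pkr2-2* (-0.80). Others had ratios of opposite sign. *RCA* was at 435 FPKM in double mutant seeds against 366 in *pkr2-2* (0.25, against -0.53 for *pkl-1* over Col-0), and *PSBO2* at 100.3 against 87.9 (0.19, against -0.55). In total 9 genes were lower in *pkl-1* than in Col-0 and higher in double mutant seeds than in *pkr2-2*, which were *LHCA1*, *LHCB2.2*, *PSAD2*, *PSBO2*, *PSBQ2*, *PETE1*, *ATPC1*, *LFNR1* and *RCA*. After scaling to the summed FPKM only *PSBO2*, *PETE1* and *RCA* of these were still lower in *pkl-1*, and the unscaled ratios of *LHCA1* (-0.01) and *PSAD2* (-0.00) in *pkl-1* had counting intervals that included 0. Scaling to the summed FPKM turned the median of the double mutant against *pkr2-2* to 0.16, with 11 of 47 lower, beside a median of 0.43 over all genes.

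**Figure D4:**
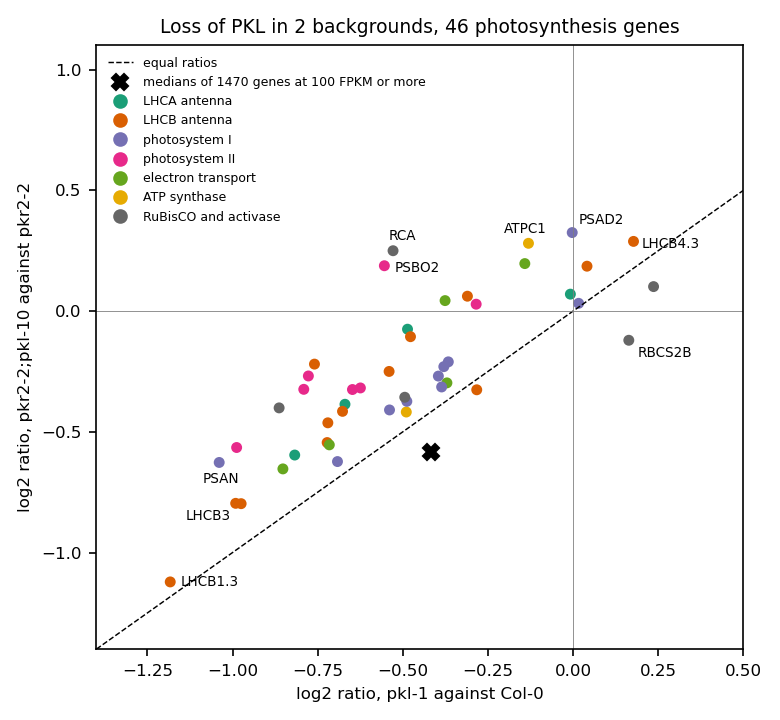
Log2 ratio of FPKM + 1 for *pkl-1* against Col-0 (horizontal axis) and for the double mutant against *pkr2-2* (vertical axis) for 46 genes, without *LHCB1.4*, which lies outside the axes at -2.71 and -3.30. Most points lie above the dashed line of equal ratios, as counted over all 47 genes (43), while the cross for the medians of 1470 genes of at least 100 FPKM lies below it, at -0.42 and -0.58.

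Set directly against *pkl-1*, the double mutant had a median log2 ratio of 0.04 over these genes, with 19 of 47 lower (43.4% of all genes). After scaling to the summed FPKM the median was 0.15, with 7 lower and 40 higher, beside a median of 0.15 over all genes. Without that scaling, 2 were lower by more than 0.5 (6.41%), which were *LHCB1.3* (1575 against 2402 FPKM, -0.61) and *LHCB1.4*. Among genes of at least 100 FPKM, 15 of 43 were lower, against 69.7%, and 1 by more than 0.5, against 8.07%. Only *LHCB1.4* was lower by more than 2-fold (2.18% of all genes), and none was higher by more than 2-fold (2.29%). *RBCS2B* (238 against 173 FPKM, 0.46), *LHCB4.3* (159 against 127, 0.32) and *RCA* (487 against 394, 0.31) had the highest ratios.

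Related pathways were examined in 3 lists of genes outside the 47. Of 16 further photosystem and electron transport genes, 12 of 15 that reached 1 FPKM were lower in *pkr2-2* and 14 of 15 were in *pkl-1*, as were 13 of 16 in double mutant seeds, with medians of -0.16, -0.54 and -0.57 (-0.19, -0.21 and -0.12 after scaling to the summed FPKM, with 9 of 16 lower in double mutant seeds). *PSBX*, for a small photosystem II subunit, was at 598 FPKM in double mutant seeds against 1304 in Col-0 (-1.12). Of 15 Calvin cycle genes, 14 were lower in *pkr2-2* and all 15 in *pkl-1* and in double mutant seeds, with medians of -0.37, -0.46 and -0.37 (-0.39, -0.15 and 0.08 after that scaling, with 15, 10 and 5 of 15 lower). *FBA1*, for a plastid aldolase, was at 102 FPKM in *pkl-1* against 250.4 in Col-0 (-1.29) and at 105 in double mutant seeds against 266 (-1.33). Of 15 chlorophyll synthesis genes, 12 of 14 that reached 1 FPKM were lower in *pkr2-2* and 13 of 15 were in *pkl-1*, as were 11 of 15 in double mutant seeds, with medians of -0.29, -0.23 and -0.09 (-0.32, 0.09 and 0.35 after that scaling, with 12 of 14, 5 of 15 and 4 of 15 lower). *PORB*, one of the light-dependent protochlorophyllide reductases, followed another order than the antenna genes. It was at 24.2 FPKM in *pkr2-2* against 86.3 in Col-0 (-1.79), at 99.9 in *pkl-1* against 94.6 (0.08) and at 14.4 in double mutant seeds against 100.5 (-2.72).

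Markers of seed compartments also moved with genotype. The summed FPKM of 7 endosperm markers was 78.3 in *pkr2-2* against 94.9 in Col-0, 56.6 in *pkl-1* against 104 and 47.3 in double mutant seeds against 111, where 4 of the 6 that reached 1 FPKM were lower by more than 2-fold. *AGL62*, an endosperm regulator, was higher than Col-0 in both *pkl* mutants, at 1.72 FPKM in *pkl-1* against 0.500 and at 2.01 in double mutant seeds against 0.531. The sum of 5 embryo markers was 276 in *pkr2-2* against 367, 276 in *pkl-1* against 403 and 360 in double mutant seeds against 428, and its members differed in direction in double mutant seeds. *LEC1*, a regulator of embryo maturation, was at 5.45 FPKM in double mutant seeds against 99.9 in Col-0, whereas *PDF1*, an epidermal gene that made up most of the sum, was at 309.6 against 268. That of 6 seed coat markers was 876 in *pkr2-2* against 850 in Col-0, 1162 in *pkl-1* against 931 and 1199 in double mutant seeds against 990. *BAN* made up most of it, at 872 FPKM in *pkl-1* and 856 in double mutant seeds. *GL2* and *TTG2* were lower than Col-0 in *pkl-1*. These sums are without scaling to the summed FPKM, which would place the embryo sum in double mutant seeds above Col-0. On that scale the median log2 ratios were, in the same order of mutants, -0.23, -0.60 and -0.72 for endosperm markers. They were -0.38, -0.40 and -0.43 for embryo markers and 0.18, 0.63 and 0.80 for seed coat markers. Markers of the stomatal lineage, which would mark fruit wall or leaf tissue, were each at most 0.579 FPKM in every genotype, and *MUTE* was listed at 0 throughout. The part of these markers in the lower photosynthesis transcripts was not tested, and in whole seeds fewer cells of a type cannot be told apart from less RNA per cell.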

How the data were processed

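mRNA of seeds of both single mutants, the double mutant and Col-0 was sequenced by the authors, with 2 replicates per genotype. Reads were trimmed with Fastp, mapped to TAIR10.1 with TopHat 2.1.1 and quantified with Cufflinks 2.2.1.3, with Cuffdiff run once for each of 5 pairs of genotypes under geometric normalization, per the methods and the submitters' processing notes. The deposited unit is FPKM, pooled by the authors over the replicates, so depth per sample is not given and precision between replicates is unknown. The tables also hold the authors' log2 fold change, test statistic, p-value and q-value, which were not used.

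Log2 ratios of FPKM + 1 were computed within each table for genes of at least 1 FPKM in either genotype, and a ratio beyond 1 was counted as past 2-fold. Fragments were estimated from the smallest FPKM steps of transcripts of at least 2000 bases, with a fragment length of 200 bases assumed. Positions, promoters (from the most upstream annotated start) and shared 100-base windows were taken from RefSeq's TAIR10.1 annotation. The genes, lists and tests were chosen with earlier results of these data known. All 47 genes could be named. Those given in full are, per class, the most abundant and those with the largest ratio, and others were added after their values were seen. From the other pathways at most the 3 with the largest ratio per list were eligible. The script was tested on simulated data for the double mutant against Col-0 over 38209 genes. These were the Col-0 values copied without noise, with 200 genes changed well past 2-fold. All 200 were recovered and 0 unchanged genes were called. That outcome was fixed by the design, so it checks the arithmetic and not the error of real libraries. Alternatives were pseudocounts, filters, thresholds, centring, families summed to 1 value and, added after the data were seen, a filter of 100 FPKM, a threshold of 0.5, exclusion of genes sharing 10% or more of their windows, and scaling to summed FPKM. Biopython 1.88, matplotlib 3.10.9, pandas 2.3.3, numpy 2.4.6 and scipy 1.17.1 were used under Python 3.11.15.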

Additional observations from a re-analysis of the deposited data

How the results depend on the processing

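No paired analysis was possible because the tables hold values pooled over the replicates, and for the same reason no replicate could be left out. The median of the 47 genes ranged from -0.27 to -0.24 in *pkr2-2* against Col-0, from -0.55 to -0.20 in *pkl-1*, from -0.62 to -0.13 in double mutant seeds, from -0.33 to 0.16 for the double mutant over *pkr2-2* and from -0.01 to 0.15 for the double mutant over *pkl-1*. Scaling to the summed FPKM, added after the data were seen, moved the median to -0.20 in *pkl-1*, -0.13 in double mutant seeds and 0.15 in double mutant seeds against *pkl-1*, and reversed that of the double mutant against *pkr2-2* to 0.16. It left 1 gene past 2-fold in *pkl-1* and 1 in double mutant seeds against *pkr2-2*, and of the 3 in double mutant seeds against Col-0 2 were then lower and 1 higher. Pseudocounts of 0.1 or none, no filter and centring moved none of the medians or counts beyond the limits set (0.1 on the log2 scale and 1.5 times). Exclusion of genes with shared windows moved none of the medians beyond that limit, and counts were not computed for it.

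Genes past 2-fold numbered 0, 3, 3, 2 and 1 in the 5 comparisons (*pkr2-2*, *pkl-1* and the double mutant, each against Col-0, then the double mutant set against *pkr2-2* and *pkl-1* in turn). At the study's threshold of 2 on the log2 scale they numbered 0, 1, 1, 1 and 0, and at 0.5 they numbered 5, 24, 29, 11 and 2. Summing *LHCB1*, *LHCB2* and *RBCS* left 1 in *pkl-1*, 0 against *pkr2-2* and 0 against *pkl-1*. A filter of 100 FPKM left 1 against *pkr2-2* and 0 against *pkl-1*, and a filter of 5 FPKM left 0 against *pkl-1*, in each case because *LHCB1.4* was left out. Counting error was widest for *LHCB1.4*, and all other counting intervals of a log2 ratio were at most 0.19 wide. For ratios near 0, such as those of *LHCA1*, *PSAD2* and *PSAH2* in *pkl-1*, the interval included 0, so depth also limits their direction.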
